A study of Rattus norvegicus with 2 samples.

Results

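Solute carriers are membrane proteins that move sugars, amino acids, ions, neurotransmitters, bile acids and other small molecules across the cell membrane or into vesicles. Their genes carry the symbols Slc and Slco. The genes described here are all those with such a symbol outside the mitochondrial Slc25 family, named from the accession of each probe, kept where at least 1 of the 2 arrays measured them. They were chosen by measured values: on either array, at least as many of a probe's spots had to be flagged well above background as not. Slc7a6os, an overlapping gene that is no carrier, shares the symbol and is counted with them. There were 242 of them, among 298 carrier genes that the array holds and 11983 measured genes in all. The aneurysm library (1 array) came from a rat intracranial aneurysm lesion taken 3 weeks after induction. The control library (1 array) came from the intracranial arterial wall of rats without treatment. The sources used here do not give strain, age, sex, the method of induction or whether animals were pooled. Both RNAs, prepared with a fibrous tissue kit, were hybridised to Agilent rat expression arrays in 1 colour.

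Carriers mark cell types because each tissue takes up its own substrates. Hepatocytes draw bile acids, organic ions, glucose and fatty acids from blood with carriers that few other cells make. Neurons load transmitters into vesicles and take them back at the synapse, astrocytes clear glutamate, and the endothelium and the meninges guard the brain with carriers for glucose, amino acids and organic anions. Most other families serve nearly all cells, among them the zinc carriers and the Golgi carriers of nucleotide sugars.

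The values below are scaled intensities, in units where the 75th percentile of each array is 100, and differences are on the log2 scale, aneurysm minus control. Each ± is a spot error: it comes from how far repeat spots of an array lie apart and holds no variation between animals. With 1 array per group there was no replicate check and no test across samples, so each difference describes these 2 libraries, and the number of arrays limits the precision. Where only 1 array measured a gene well above background, the difference is a bound, and its fold is given as "at least". Such a bound uses the dim value as measured, or the lowest detected value of that array if this is higher. It is therefore no strict limit, and the difference behind it may also be smaller. The libraries differed in genes of another tissue: all 13 measured hepatocyte marker genes were at least 2-fold lower in the aneurysm library, with a median of -4.37. Their summed scaled intensity was 861 in the aneurysm library and 4588 in the control library. Most of the aneurysm sum was Ttr, a thyroxine carrier protein of liver and choroid plexus, and without it the sums were 68.1 in the aneurysm library and 2469 in the control library. In the aneurysm library 5 of the 13, among them Fga and Fgg, the alpha and gamma chains of fibrinogen, were not well above background. Smooth muscle markers defined the wall in both libraries, with 7 of 7 well above background on both arrays and a median of 0.18. Contractile myosin Myh11 had a scaled intensity of 3143 in the aneurysm library and 2972 in the control library.

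Over all carriers, few differed by 2-fold, and most of those that did are carriers of liver. Of 239 carriers with a difference or bound, 1 was at least 2-fold higher (0.418%) and 10 were at least 2-fold lower (4.18%) in the aneurysm library. Over all 11902 genes with a value the shares were 0.882% higher and 3.91% lower, so the shares among carriers lay near those of the array. Spike-in scaling turned the split of 1 higher and 10 lower into 6 and 8, normexp background correction into 0 and 6, and quantile normalization into 4 and 10. At 1.5-fold, 13 carriers were higher and 28 lower, where 4.25% of all genes were higher and 8.43% lower. In all 100 carriers lay above 0, or 41.8%, against 50.2% of all genes. Within the 10 lower genes, 8 belonged to the liver list, and among the 222 carriers outside that list 1 was higher and 2 were lower. The median difference was -0.07 over the carriers and 0.001 over all genes. Spike-in scaling moves the median of all genes to 0.30 and that of the carriers to 0.23. For 88 carriers the difference was smaller than its own spot error, and 198 (82.8%) lay within 1.5-fold, against 87.3% of all genes.

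**Figure D1:**
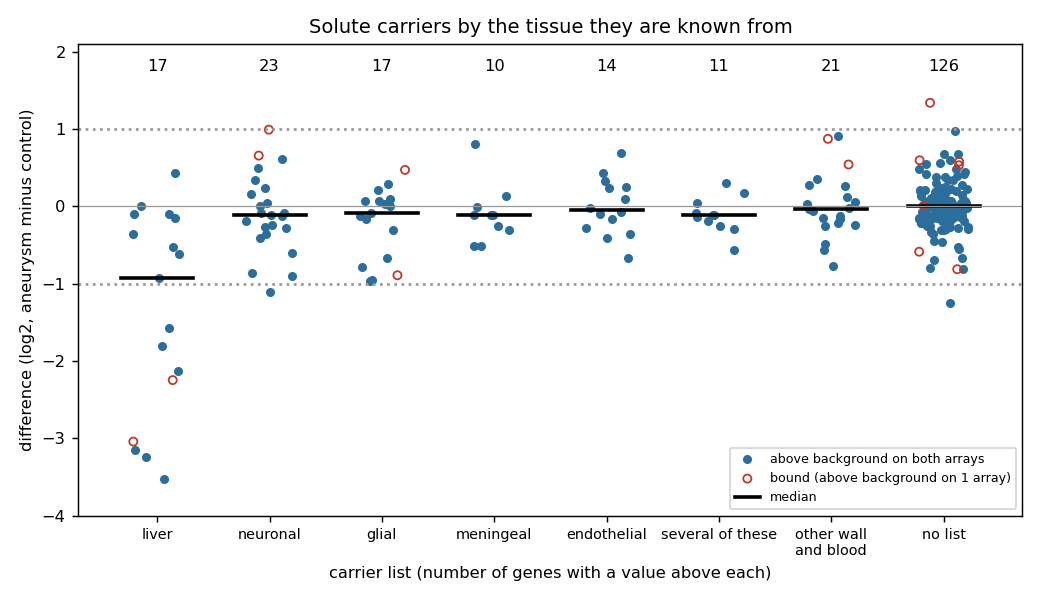
Log2 difference (aneurysm minus control) of each carrier, by the tissue the carrier is known from. Filled points are genes well above background on both arrays, open points are bounds, bars are medians and dotted lines mark 2-fold. The liver list alone has a median near the lower line (-0.93), and the other 7 groups have medians between -0.12 and -0.0015.

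Detection decided which carriers are described. Of the 298 on the array, 224 were well above background on both arrays, 13 in the aneurysm library only, 5 in the control library only and 56 on neither. Among the genes just inside the limit on flagged spots was Slc22a14, with scaled intensities of 0.360 in the aneurysm library and 1.51 in the control library, where 1 of 2 spots was flagged. Slc1a4, a neutral amino acid carrier, was another, at 1.63 in the aneurysm library and 0.546 in the control library. Just outside lay, with 0 of 1 spot flagged on each array, Slc16a14, at 1.13 in the aneurysm library and 2.16 in the control library, and the Purkinje cell glutamate carrier Slc1a6, at 1.92 and 1.82 in the same order. For 3 genes seen in the aneurysm library only, Slc26a9, Slc35g3 and Slc43a1, no bound was possible. Their intensity was lower there than in the control library, with measured differences of -0.12, -0.23 and -0.34. By construction, bounds of genes seen in the aneurysm library only are above 0. Those of genes seen in the control library only are below 0, and the counts above and below 0 include both.

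Carriers of hepatocytes were lower in the aneurysm library as a group. Of 21 listed genes 20 were on the array and 17 were measured: 8 were at least 2-fold lower and 0 at least 2-fold higher, 16 lay below 0, and the median was -0.93 (range -3.52 to 0.43). Over all genes 49.8% lay below 0, 3.91% were at least 2-fold lower and 0.882% at least 2-fold higher. Slco1a1, a liver organic anion carrier, the phosphate carrier homologue Slc17a2 and the vitamin C carrier Slc23a1 were on neither array well above background. The difference in this list ran beside that of the hepatocyte markers, and their part in it was not tested. In bulk tissue, fewer cells of a type and less RNA per cell cannot be told apart.

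Enzymes that activate fatty acids and bile acids were among the lowest. Slc27a2, which activates very long chain fatty acids, had a scaled intensity of 3.36 in the aneurysm library and 38.6 in the control library. It was 11.5-fold lower (log2 -3.52 ± 0.34), on 1 spot per array. Slc27a5, the liver enzyme that joins bile acids to coenzyme A, was at 9.19 in the aneurysm library and 81.8 in the control library, 8.90-fold lower (-3.15 ± 0.11). Of the same family, Slc27a1 and Slc27a4, which other tissues use for fatty acid uptake, were both at -0.07, and Slc27a3 was at 0.21 ± 0.12. So the liver members and the other members of this family lay far apart.

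Sinusoidal uptake carriers of liver differed by similar folds. Slc2a2, the glucose carrier GLUT2 of liver and pancreas, was at 1.56 in the aneurysm library and 14.7 in the control library, 9.45-fold lower (-3.24 ± 0.44). The other 10 measured members of the Slc2 family lay between -0.31 and 0.42. Slco1b2, the liver anion and bilirubin carrier, was at 1.18 in the aneurysm library, not well above background, and at 9.72 in the control library. It was at least 8.24-fold lower (-3.04 ± 0.65), on 1 spot per array. Slc10a1, the sodium-coupled bile acid carrier NTCP, was at 1.77 in the aneurysm library, where 1 of 6 spots was well above background, and at 8.41 in the control library, where 7 of 7 were. Its spots ranged from 1.60 to 2.13 in the aneurysm library and from 7.68 to 8.97 in the control library, without overlap, and it was at least 4.75-fold lower (-2.25 ± 0.26).

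Sulfate, amino acid and further organic ion carriers of liver were lower by less. Slc26a1, a sulfate carrier of liver and kidney, was at 3.22 in the aneurysm library and 11.3 in the control library, 3.51-fold lower (-1.81 ± 0.27). Slc38a4, a sodium-coupled amino acid carrier, was at 8.14 in the aneurysm library and 24.3 in the control library, 2.99-fold lower (-1.58 ± 0.16). Slc22a7, the organic anion carrier OAT2, was at -0.93 ± 0.59. The zinc carrier Slc39a5 was at -0.62 ± 0.22 and Slc22a25, a member of the organic ion family, at -0.53 ± 0.09. Some other members of the liver list lay near 0. The glucose 6-phosphate carrier Slc37a4 was at -0.15 ± 0.06 and Slc16a13 at -0.10 ± 0.06. The betaine carrier Slc6a12 was at -0.0016 ± 0.07 and the arginine carrier Slc7a2 at -0.10 ± 0.21. Of these, Slc16a13, Slc6a12 and Slc7a2 were added after their values had been seen. Slc10a5, a relative of NTCP, was at -0.35 ± 0.39, and Slc16a10, an aromatic amino acid carrier, was highest at 0.43 ± 0.45 (-0.11 with normexp), neither clear of its spot error.

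**Figure D2:**
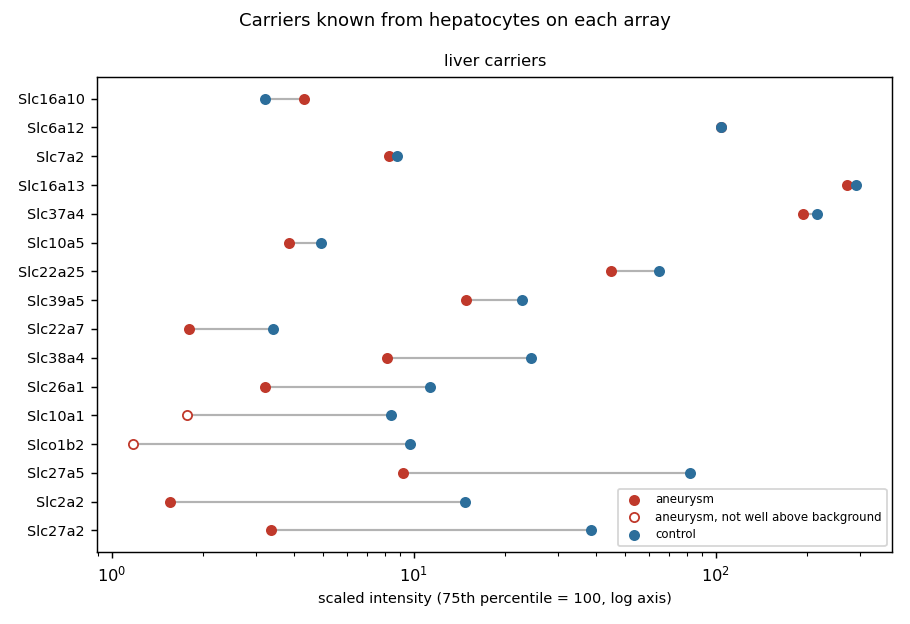
Scaled intensity (log axis, 75th percentile of the array = 100) of 16 of the 17 measured liver carriers, in the aneurysm and control libraries joined by a line. Open points are values not well above background. From Slc27a2 (3.36 against 38.6) up to Slc38a4 (8.14 against 24.3) the 7 lowest differences shown are all at least 2-fold.

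Calls at 2-fold of dim carriers depended on the background treatment. With normexp, 6 of the 11 carriers at least 2-fold apart stayed so, among them Slc27a5 (-2.41), Slc27a2 (-2.08), Slc2a2 (-1.46), Slco1b2 (-1.12) and Slc38a4 (-1.04). Slc10a1 was then at -0.94 and Slc26a1 at -0.89. All 11 kept their sign, and normexp adds an offset of 50 to each value, which by construction pulls dim genes towards 0.

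Hepatocyte regulators and ABC transporters listed beside these carriers gave a mixed picture. Of 12 listed regulators 9 were measured, 2 were at least 2-fold lower and the median was -0.38 (0.0094 with the mean over probes, -0.08 with spike-in scaling), while Foxa2 and Foxa3 were well above background on neither array. Nr1i2, the drug-sensing receptor PXR, was at 3.00 in the aneurysm library and 12.1 in the control library (-2.01 ± 0.27), and the liver factor Onecut1 had a bound of -2.07, or -0.63 with normexp. Hnf4a had a bound of 0.62 ± 0.84, from a scaled intensity of 1.80 in the aneurysm library and 1.05 in the control library, neither far from the detection limit. Abcc2, the canalicular exporter MRP2, was at least 2-fold lower (bound -2.50 ± 0.22, but -0.91 and under 2-fold with normexp). The other 4 measured ABC transporters listed for liver lay between -0.37 and 0.31. The bile salt exporter Abcb11 was well above background on neither array.

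Neuronal carriers as a list differed little between the libraries, with members apart in both directions. Of 27 listed genes 26 were on the array and 23 were measured: 1 was at least 2-fold lower, 0 higher, and the median was -0.12, against 0.001 over all genes. With spike-in scaling the median turned to 0.19. Neuron markers beside them had a median of -0.22, with 7 of 10 below 0 and Tubb3, a neuronal tubulin, at -1.22. Their part in the carriers' differences was not tested.

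Of the vesicular glutamate carriers, the brainstem form was lower. Slc17a6, the carrier VGLUT2 of brainstem and thalamic neurons, was at 9.76 in the aneurysm library and 21.0 in the control library, 2.15-fold lower (-1.10 ± 0.06). It has 10 spots per array, from 7.87 to 11.7 in the aneurysm library and from 19.8 to 22.2 in the control library, so the spots do not overlap. With spike-in scaling it was at -0.80 and with normexp at -0.77, both under 2-fold. Slc17a7, the cortical carrier VGLUT1, was at 1.85 in the aneurysm library and 1.15 in the control library, where it was not well above background (bound 0.66 ± 0.84), and its spots overlap between the arrays. Slc30a3, which loads zinc into glutamate vesicles, was at 48.8 in the aneurysm library and 89.0 in the control library (-0.87 ± 0.08).

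The vesicular carrier of inhibitory neurons lay above 0. Slc32a1, which loads GABA and glycine into vesicles, was at 232 in the aneurysm library and 151 in the control library (0.62 ± 0.09, 1 spot per array). The GABA-synthesising enzymes were at 0.62 ± 0.16 (Gad2) and 0.17 ± 0.06 (Gad1). Slc6a5, the glycine carrier GLYT2, was seen in the aneurysm library only, at 3.43 against 1.73 in the control library (bound 0.99 ± 0.76). A bound of this kind was kept only where it lay above 0, so its sign carries no information. None of these differences reached 2-fold in this scaling.

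Cholinergic and monoamine carriers lay within or near their spot errors. The choline carrier Slc5a7 was at -0.18 ± 0.45, the vesicular acetylcholine carrier Slc18a3 at -0.12 ± 0.17, the vesicular monoamine carrier Slc18a2 at 0.04 ± 0.17 and the noradrenaline carrier Slc6a2 at -0.09 ± 0.15, with another probe at 0.51. The dopamine and serotonin carriers Slc6a3 and Slc6a4, and the third vesicular glutamate carrier Slc17a8, were well above background on neither array. Slc6a15, a neuronal carrier of branched-chain amino acids, was at 3.71 in the aneurysm library and 6.91 in the control library (-0.90 ± 0.30). The calcium exchanger Slc24a2 was at -0.61 ± 0.15, but its other probe gave 0.02. Slc12a5, the neuronal chloride exporter KCC2, was at 180 in the aneurysm library and 195 in the control library (-0.12 ± 0.03), with another probe at -0.79.

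In the glial list all 17 genes were measured, 0 were 2-fold apart in either direction and 5 were at least 1.5-fold lower, against 8.43% of all genes at that threshold. The median was -0.09 (0.21 with spike-in scaling). Slc7a10, an astrocyte carrier of small neutral amino acids, was at 20.1 in the aneurysm library and 39.3 in the control library (-0.96 ± 0.10). The zinc carrier Slc39a12 was at 7.77 in the aneurysm library and 15.1 in the control library (-0.95 ± 0.26, 1 spot per array). The astrocyte GABA carrier Slc6a11 was at 3.82 in the aneurysm library and 6.58 in the control library (-0.78 ± 0.30). Slc1a2, the main glutamate carrier of forebrain astrocytes, was at 126 in the aneurysm library and 199 in the control library (-0.66 ± 0.06), and its other probe gave -0.51. The urea carrier Slc14a1 had a bound of -0.89 ± 0.84. That bound is close to its spot error.

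Other glial carriers, some of them known from astrocytes too, lay nearer to 0. Slc1a3, the glutamate carrier of astrocytes and radial glia, was at 2353 in the aneurysm library and 2509 in the control library (-0.09 ± 0.05). Its other probe gave -0.28. The bicarbonate carrier Slc4a4 was at -0.12 ± 0.08, with another probe at 0.17, and the peptide carrier Slc15a2 at 0.10 ± 0.76. The cystine carrier Slc7a11, measured by 10 spots, was at 967 in the aneurysm library and 833 in the control library (0.22 ± 0.025, but -0.19 by its other probe). The microglial hexose carrier Slc2a5 was at 0.28 ± 0.14. Slc1a4 had a bound of 0.47 ± 0.84. Astrocyte markers had a median of -0.18 with 5 of 7 below 0, and oligodendrocyte markers a median of -1.14 with 7 of 7 below 0. Summed, the oligodendrocyte markers were at 8523 in the aneurysm library and 16755 in the control library, or at 641 and 1458 in the same order without the myelin gene Mbp, which makes up most of both sums. Their part in the glial values was not tested.

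**Figure D3:**
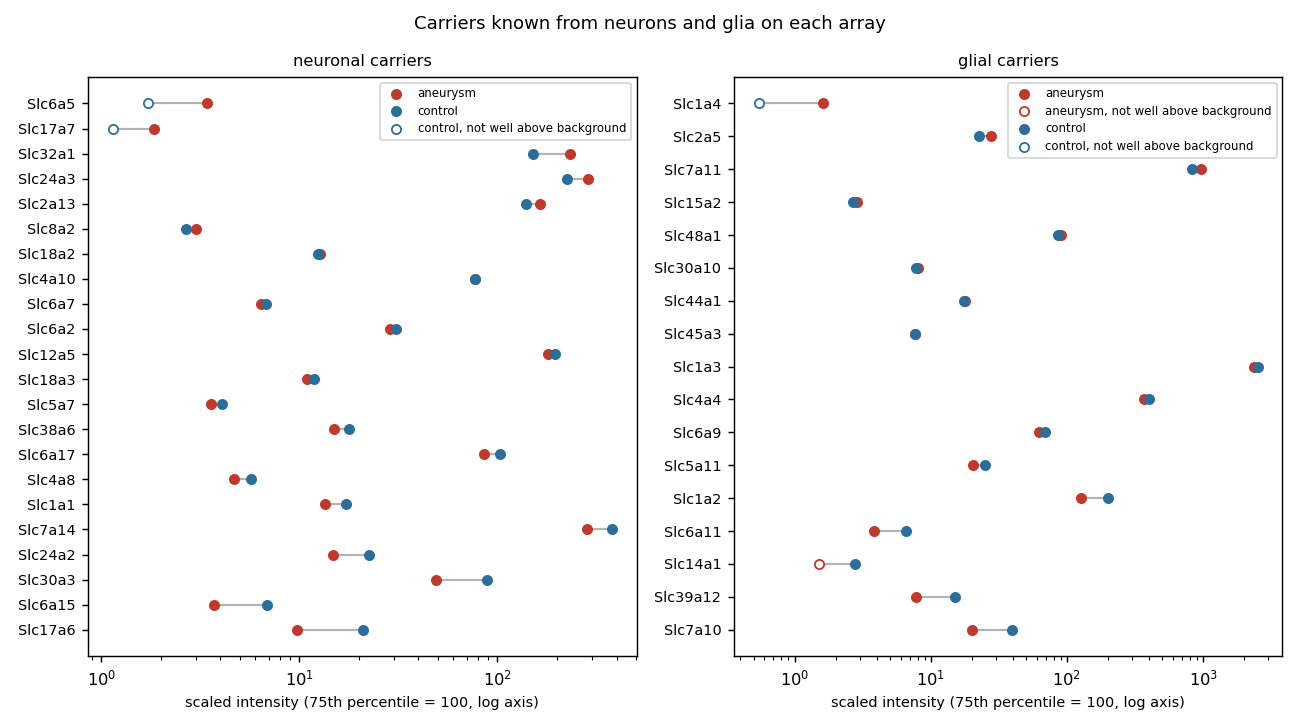
Scaled intensity (log axis, 75th percentile of the array = 100) of 22 of the 23 measured neuronal and the 17 measured glial carriers, in the aneurysm and control libraries joined by a line. Open points are values not well above background. Slc17a6 (9.76 against 21.0) and Slc7a10 (20.1 against 39.3) have the lowest differences of their lists, while Slc32a1 (232 against 151) runs the other way.

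Meningeal carriers as a list were close to equal, and Slc47a1 lay furthest apart. All 10 on the array of 12 listed were measured on both arrays, 0 reached 2-fold, and the median was -0.12 (0.19 with spike-in scaling). Slc47a1, the organic cation exporter MATE1, was at 121 in the aneurysm library and 69.1 in the control library (0.80 ± 0.08). It was at 0.73 with normexp and reached 1.11 with spike-in scaling. Slc13a3, the dicarboxylate carrier, was at 11302 in the aneurysm library and 11372 in the control library. Slc22a6, the organic anion carrier OAT1, was at 4799 in the aneurysm library and 5916 in the control library (-0.30 ± 0.05). The sulfate carrier Slc26a2 and Slc4a11, a carrier of corneal endothelium, were both at -0.52, the glutamine carrier Slc1a5 was at -0.26 ± 0.09 and the vitamin C carrier Slc23a2 at 0.14 ± 0.16. Slc6a20a, a proline carrier listed under its shorter symbol and so not matched, was at 0.04 ± 0.06. Meningeal and fibroblast markers had a median of 0.16, with 6 above 0 and 3 below. Lum, a collagen-binding proteoglycan, was highest at 0.88. The brightest marker, Ptgds, was lowest at -0.52, with 47642 in the aneurysm library and 68177 in the control library. Summed, these markers were at 73768 in the aneurysm library and 96210 in the control library.

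Endothelial carriers as a list were also near equal, with members apart in both directions. Of 18 listed genes 14 were on the array and all 14 were measured, 0 reached 2-fold, and the median was -0.04 (0.26 with spike-in scaling), with 6 above 0. Endothelial markers had a median of 0.16. Slco2a1, which takes up prostaglandins, was at 14.4 in the aneurysm library and 8.96 in the control library (0.69 ± 0.20, and 0.26 with normexp). Slc3a2, the shared heavy chain of several amino acid carriers, was at 372 in the aneurysm library and 276 in the control library (0.43 ± 0.06). The barrier glucose carrier Slc2a1, GLUT1, had 8 spots per array, from 827 to 923 in the aneurysm library and from 679 to 719.5 in the control library, so its spots do not overlap (0.33 ± 0.03). The thiamine carrier Slc19a3 was at -0.67 ± 0.84, the lactate carrier Slc16a1 at -0.41 ± 0.11 and the taurine carrier Slc6a6 at -0.36 ± 0.08. Slc7a5, the large neutral amino acid carrier that pairs with Slc3a2, was at -0.28 ± 0.28.

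**Figure D4:**
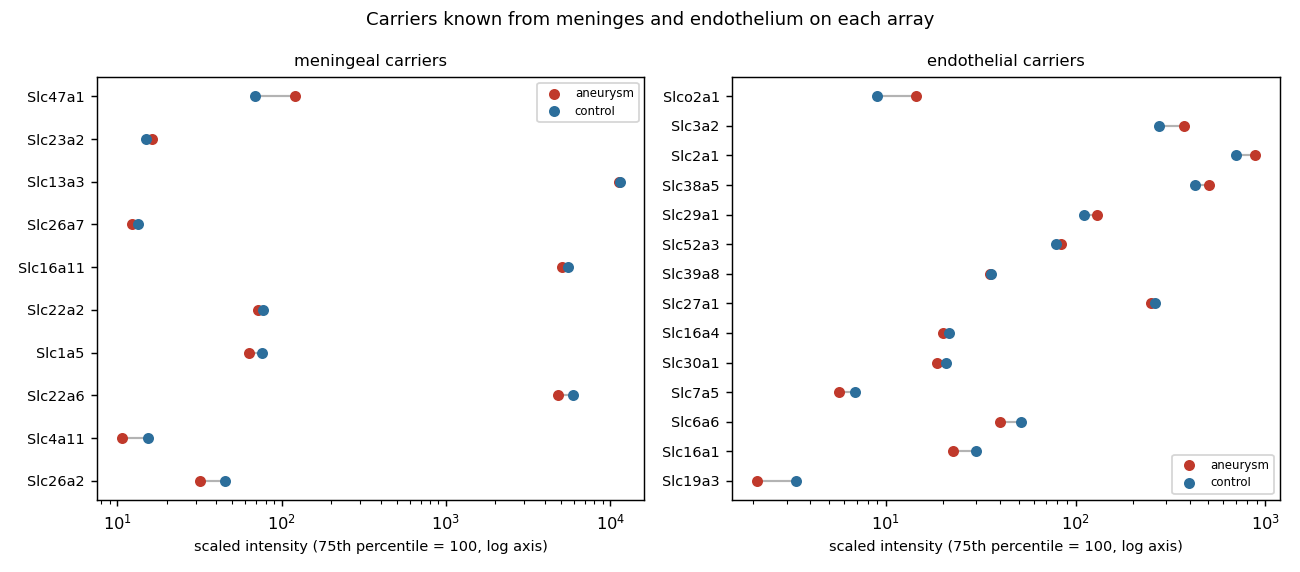
Scaled intensity (log axis, 75th percentile of the array = 100) of the 10 meningeal and 14 endothelial carriers, in the aneurysm and control libraries joined by a line. All lie within 2-fold. Slc47a1 (121 against 69.1) and Slco2a1 (14.4 against 8.96) have the highest differences of their lists.

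Carriers listed for several of the tissues above, not all of them known from liver, did not share the low median of the liver list. Both arrays detected all 11 that the array holds, and these ranged from -0.56 to 0.31 with a median of -0.11 (0.19 with spike-in scaling). Slco1a4, an organic anion carrier of hepatocytes and brain endothelium, was at 1011 in the aneurysm library and 1113 in the control library (-0.14 ± 0.05). The anion carrier Slc22a8, OAT3, was at 4561 in the aneurysm library and 4940 in the control library (-0.11 ± 0.05). Slc6a13, the GABA and taurine carrier GAT2 of liver and meninges, was at 1545 in the aneurysm library and 1637 in the control library (-0.08 ± 0.05). The lowest was Slco1c1, the thyroxine carrier of brain capillaries and astrocytes, at 128 in the aneurysm library and 188 in the control library (-0.56 ± 0.06). The citrate carrier Slc13a5 was at -0.25 ± 0.14 and the iron exporter Slc40a1 at -0.19 ± 0.14. Slco2b1 was highest at 0.31 ± 0.09, and the carnitine carrier Slc22a5 was at 0.17 ± 0.37. Within the Slco1 group, Slco1b2 thus stood at -3.04 while Slco1a4 and Slco1a5 stood at -0.14 and -0.11.

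Carriers of macrophages, smooth muscle, red cells and choroid plexus held the highest value seen on both arrays in any list. Slc11a1, the phagosomal metal carrier NRAMP1 of macrophages, was at 20.3 in the aneurysm library and 10.9 in the control library (0.91 ± 0.16, and 0.55 with normexp). Its spots ranged from 19.0 to 21.8 in the aneurysm library and from 10.3 to 11.5 in the control library. Slc7a7, a cationic amino acid carrier light chain of macrophages and epithelia, was seen in the aneurysm library only (bound 0.87 ± 0.84). The peptide carrier Slc15a3, also of macrophages, was at -0.16 ± 0.09. Over the 21 genes of this list with a value, the median was -0.04 and 0 reached 2-fold. Slc43a3 was at -0.77 ± 0.42 and the red cell anion exchanger Slc4a1 at -0.48 ± 0.30. The anion exchanger Slc4a2 was at -0.57 ± 0.06, but its other probe gave -0.07. The bicarbonate carrier Slc4a5 of choroid plexus had a bound of 0.54 ± 0.84. The smooth muscle sodium-calcium exchanger Slc8a1 was at -0.22 ± 0.24, and the sodium-potassium-chloride carrier Slc12a2 was at 99.5 in the aneurysm library and 77.8 in the control library (0.35 ± 0.04, 10 spots per array).

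By family, medians were small. Of 50 families measured, 18 had at least 5 members, and their medians ran from -0.32 in Slc26 to 0.25 in Slco. With spike-in scaling all 18 medians were above 0, the lowest at 0.05 in Slc1, so the sign of these medians depends on the scaling. Slc22, the organic ion family, had 4 of 14 genes at least 1.5-fold lower, against 8.43% of all genes, with Slc22a13 highest at a bound of 1.34 ± 1.08. Slc7, the amino acid exchangers, had 12 of 15 below 0, from Slc7a10 to Slc7a7. In Slc39, the zinc importers, 9 of 11 lay below 0, from Slc39a12 to Slc39a7 (0.24 ± 0.07). In Slc12, the cation-chloride carriers, 7 of 8 lay above 0, from Slc12a5 to the thiazide-sensitive carrier Slc12a3 (0.41 ± 0.44). The nucleotide sugar family Slc35 was narrow apart from its highest member, with 15 of 22 above 0 and a range from -0.19 in Slc35f1 to 0.98 in Slc35d3.

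**Figure D5:**
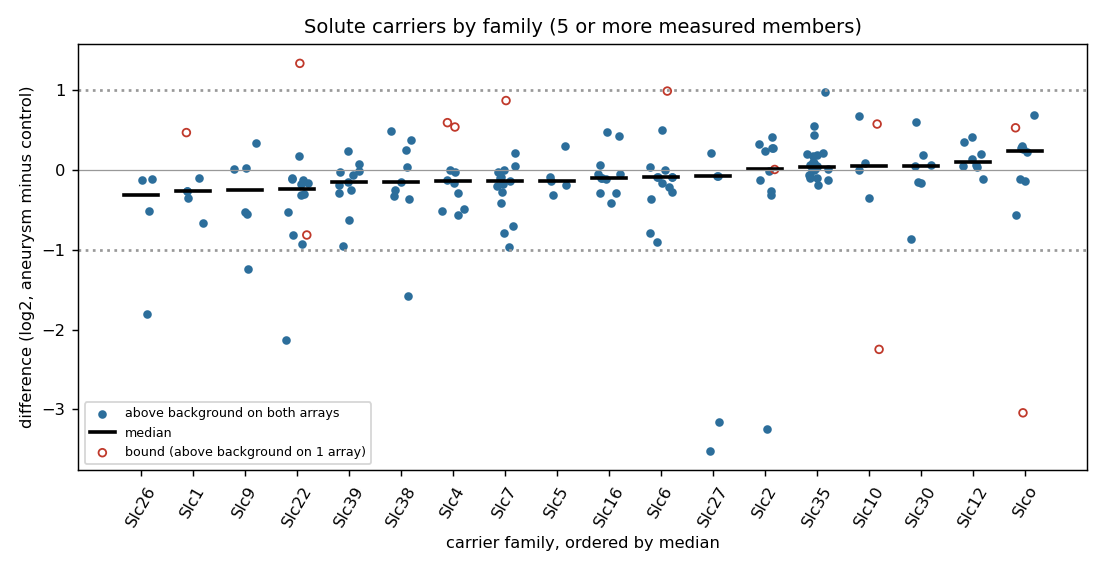
Log2 difference (aneurysm minus control) of each carrier in the 18 families with at least 5 measured members, ordered by the median (bars). Open points are bounds and dotted lines mark 2-fold. The points at least 2-fold lower belong to 8 families, with 2 such genes in Slc27 and 1 in each of the others, while family medians stay between -0.32 and 0.25.

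Outside the lists 126 carriers had a value, with 1 at least 2-fold higher, 1 at least 2-fold lower and a median of -0.0015. Slc9a3, the sodium-proton exchanger NHE3 of kidney and gut, was at 1.76 in the aneurysm library and 4.16 in the control library (-1.24 ± 0.59, and -0.53 with normexp). Slc22a13, an organic anion carrier of kidney, was at 3.42 in the aneurysm library and 1.35 in the control library, where it was not well above background. At 1 spot per array it was at least 2.53-fold higher, with a bound of 1.34 ± 1.08 that was 0.02 with normexp. Slc35d3, a carrier-like protein of platelet granules and striatal neurons, was at 6.80 in the aneurysm library and 3.44 in the control library (0.98 ± 0.61, 1 spot per array, and 0.07 with normexp). Slc66a3, a PQ-loop membrane protein with 9 spots in the aneurysm library and 10 in the control library, was at 53.3 in the aneurysm library and 36.4 in the control library, and its spots did not overlap (0.55 ± 0.04).

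Further high values outside the lists were those of Slc10a6, a steroid sulfate carrier (0.68 ± 0.26), Slc46a3, a lysosomal carrier (0.68 ± 0.76), the zinc exporter Slc30a4 (0.60 ± 0.20) and Slc35f5 (0.56 ± 0.17). With normexp these were 0.17, -0.14, 0.20 and 0.29. The amino acid carrier Slc38a2, known to be induced by amino acid shortage, was at 765 in the aneurysm library and 547 in the control library (0.49 ± 0.06), and the lactate exporter Slc16a3 at 99.4 and 71.3 in the same order (0.48 ± 0.08). Both were nearly the same with normexp (0.50 and 0.45). The peptide carrier Slc15a1 and Slc22a14, a member of the organic ion family, were seen in the control library only, with bounds of -0.59 ± 0.84 and -0.81 ± 0.84.

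Repeat probes gave a measure of how closely probes of a carrier match. Both arrays detected several probes of 40 carriers. The probes disagreed in sign for 17 of these and were 2-fold apart for 0. A further probe seen in the aneurysm library only gave Slc12a8, at 0.14 by its brighter probe, a bound of 1.41. For Slc12a3 such a probe was at 1.30 in the aneurysm library and 2.27 in the control library, not well above background there, which gives no bound. A total of 58 carriers were measured by 1 spot per array.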

How the data were processed

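Per the file headers, Agilent Feature Extraction 10.10.1.1 made the scanner output that the authors deposited for each of 2 arrays. From it come the deposited linear processed intensity of each spot and the deposited flags of 0 or 1 for spots well above background, saturated or outlying. Both arrays share 1 slide and 1 scan, per the file headers.

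From the log2 intensity the 75th percentile of its array was subtracted (801 in the aneurysm and 621 in the control library, over 58717 spots that are no controls). Outlier spots, 573 in the aneurysm and 484 in the control library, were dropped, and a probe is the mean of its other spots. Of the spots 76.4% were well above background in the aneurysm library and 74.7% in the control library, and 0 were saturated. Probes were named by matching the accession, without version, to RefSeq (assembly GRCr8): of 30367 probes 18006 matched 1 gene and 12361 none. A gene is its brightest probe well above background on either array. A bound compares the bright value with the dim one, or with that array's lowest detected value if this is higher. The spot error pools the spot SD of probes of like signal in 20 bins per array. At 1 array per group no test was made, and calls are differences of at least 2-fold. The code was tested on simulated arrays.

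The members, the 7 carrier lists, the 13 lists of markers and partners and the naming rule were chosen with earlier results of these data known. The rule names every listed carrier at least 2-fold apart and up to 6 more per list, the 10 highest and 10 lowest values on both arrays, the 5 largest bounds each way, family extremes, genes at the detection limit and marker extremes. Slc1a3, Slc7a11, Slc2a5, Slc12a5, Slc13a3, Slc8a1, Slc12a2, Slc15a3, Slc22a8, Slc6a13, Slco1a4, Slco1a5, Slc6a20a, Slc6a2, Slc18a2, Slc18a3, Slc5a7, Slc7a2, Slc6a12, Slc16a13, Slc7a5, Slc27a1, Slc27a4, Slc4a4, Slc15a2, Slc12a8, Gad1, Gad2, Ttr, Mbp, Myh11, Fgg, Hnf4a, Slc26a9, Slc35g3 and Slc43a1 were added after their values had been seen. Alternatives were normexp (limma 3.58.1, offset 50, on deposited median foreground and background intensities), quantile, median, loess and spike-in scaling, 75th percentile over detected probes, 2 filters, probe means, outlier and saturated spots, and thresholds of 1.5-fold and 4-fold. Identity between Slco1 proteins, also planned, was not computed. Some genes that the rule names, and the search of promoter windows, are not reported here.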

Additional observations from a re-analysis of the deposited data

How the results depend on the processing

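With 1 array per group, no alternative removes a replicate, and no paired analysis was possible because each group has 1 sample. The count of carriers at least 2-fold higher (1) was 0 with normexp, 4 with quantile normalization, 3 with median centring, 4 with loess centring, 6 with spike-in scaling, 0 over genes detected on both arrays, 4 with no filter, 2 with the mean over probes, 13 at 1.5-fold and 0 at 4-fold. The count at least 2-fold lower (10) was 6 with normexp, 28 at 1.5-fold, 6 at 4-fold and 2 without the liver list, and lay from 8 to 14 under the other alternatives. With spike-in scaling the medians were 0.23 over all carriers, -0.62 for liver, 0.19 for neuronal, 0.21 for glial, 0.19 for meningeal, 0.26 for endothelial, 0.19 for shared and 0.27 for other vessel wall carriers. That scaling shifts all genes alike. The liver median was -0.55 with normexp and -0.62 over genes detected on both arrays, which leaves out its 2 bounds; the cause of the other shifts was not tested. Of 1076 values of 100 named carriers and marker genes under these alternatives, 942 moved by less than their spot error and 134 by more. Of these genes, 0 of those at least 2-fold apart changed sign. Spike-in scaling moved 72 values and left 28, and normexp moved 41 and left 52. Leaving out saturated spots could move no value, because 0 spots were saturated. Keeping outlier spots, or only genes detected on both arrays, moved 0 values. Signal over background limits the dim carriers: spot errors reached 1.08 for bounds on 1 spot, and the difference behind a bound may be larger or smaller than the bound.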

Other observations

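Exporters and pumps that work beside the carriers at the brain barriers lay near 0. Of the 5 ABC exporters listed for the barrier all were measured and 0 reached 2-fold, with a median of -0.06. Abcg2, an exporter of drugs and urate, was at 63.0 in the aneurysm library and 69.1 in the control library (-0.13 ± 0.09). Abcb1a, a form of P-glycoprotein, was well above background in the aneurysm library only (bound 0.49 ± 0.76).

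The sodium-potassium pump, whose gradient drives the sodium-coupled carriers, had all 8 listed subunits measured on both arrays and a median of 0.04 (0.35 with spike-in scaling). Otx2, a transcription factor of choroid plexus, was at 2.30 in the aneurysm library and 4.85 in the control library (-1.08 ± 0.55), while the median of the 5 choroid plexus genes was -0.02. Over 4 kidney genes the median was -0.11, and Kap, a kidney protein of rodents, was at a bound of -1.14 ± 0.84.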
